A study of Homo sapiens with 23 samples.

Results

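A set of 10 growth factor receptor genes, AXL, MET, PDGFRA, PDGFRB, KIT, FGFR1, FGFR2, FGFR3, FGFR4 and IGF1R, was followed across 4 ovarian cancer cell lines and their derivatives with acquired resistance to prexasertib, an inhibitor of the checkpoint kinase CHK1. They were picked by gene symbol as receptor tyrosine kinases outside the ERBB family and found by NCBI Gene ID, and all 10 of them were among the 21658 genes of the RNA-seq table. The lines were OV-90, Kuramochi, OVSAHO and EFO-21, established lines labelled as ovarian cancer. The 8 groups were the parental form (parental) and the prexasertib-resistant form (resistant) of each, and resistant cells had been grown in rising drug concentrations over a long period. Every group had 3 libraries labelled as biological replicates except parental OV-90, which had 2, giving 23 libraries. No source used here gave the number of independent derivations of a resistant line, so that differences between a resistant and a parental line cannot be told apart from differences between 1 selected population and its parent.

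Receptor tyrosine kinases span the cell membrane, bind a growth factor outside the cell and phosphorylate themselves and adaptor proteins inside it. The signal is passed to the RAS-ERK and PI3K-AKT pathways, and the same pathways switch on feedback inhibitors such as the Sprouty proteins and the DUSP phosphatases. AXL binds GAS6 and is often studied in drug tolerance and mesenchymal cell states, MET binds hepatocyte growth factor, PDGFRA, PDGFRB and KIT form the class III family, the FGFRs bind fibroblast growth factors, and IGF1R binds the insulin-like growth factors.

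Values were deposited log2 expression values, quantile normalized by the authors, with no read counts. Depth was therefore unknown, and the error of a value is the spread between libraries of its group. The lowest 10% of values in a library, up to a limit that lay between 1.70 and 1.87, are called the bottom here, and a difference between groups at the bottom is not a measured fold change. Levels were compared for the same gene between groups and never between genes, since the values are not per length. Libraries are named by the number in their column, which is a name and not a replicate number. Pearson correlations between libraries of a group, across genes, were 0.952 to 0.988. The lowest was between parental OV-90 libraries 2 and 3 (0.952), and library 3 correlated at up to 0.949 with resistant OV-90, so results in OV-90 are also given without single libraries. The ovarian label was checked against 7 Müllerian and serous markers. OV-90 had PAX8 at 2.10, WT1 at 1.87, MUC16 at 1.15 and MSLN at -0.05 in its parental libraries, at or close to the bottom. SOX17 (4.38), MECOM (6.68) and FOLR1 (8.70) were above it there. EFO-21 had WT1 at the bottom (1.03) with PAX8 at 8.44, and Kuramochi and OVSAHO had all 7 markers above the bottom in every parental library.

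The start regions of the receptor genes were read from RefSeq promoter sequences (GRCh38.p14, 300 bases around a start site, most of them before it), which held 16 start sites of 9 of the 10 genes. The GC box letters GGGCGG, searched on both strands, were at 10 of the 16 start sites (62.5%), against 44.95% of 35116 promoters, and each of the 9 genes had them at 1 start site or more. This is a description of letters and not of binding. A window of 30 bases is shown for 3 receptors that rose in more than 1 resistant line and for KIT, with GC boxes on the printed strand in capitals. KIT had the largest rise of the 10 receptors, and it was called in Kuramochi only. The windows are AXL chr19:41219145-41219174, MET chr7:116672024-116672053, FGFR3 chr4:1793204-1793233 and KIT chr4:54657823-54657852, all on the plus strand, which is the strand of these genes.

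AXL: GGGCGGaggcaaagggggagccagGGGCGG

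MET: tcaccttgtcgtGGGCGGggcagaggcggg

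FGFR3: cGGGCGGggaccGGGCGGgagcgGGGCGGg

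KIT: gaagcgagacccGGGCGGgcgcgagggagg

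The letters CAGGTG, an E-box read by ZEB and SNAIL family repressors, were found at 3 of the 16 start sites, 1 each of AXL, FGFR2 and FGFR4, and in 20.59% of all promoters. The AP-1 letters TGANTCA were found at 1 of 16, of PDGFRA (7.71% of all promoters), and TATAAA at 0 of 16 (11.53%). GC content over the 16 start sites ran from 47.0% for PDGFRA to 86.3% for FGFR3, with 9 above and 7 below the median of all promoters (58.7%), and it was 66.0% at the AXL start site shown, 69.3% for MET and 74.3% for KIT.

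The parental lines differed in which receptors they carried. AXL was high in EFO-21 and Kuramochi, low in OV-90 and at the bottom in OVSAHO. MET was highest in EFO-21, PDGFRA stood above the other lines in OV-90, KIT in Kuramochi, and IGF1R was low only in OVSAHO among the 4. In limma's F-test over the parental lines, 10 of 10 receptors passed an adjusted p under 0.05 with a range of group means of at least 1 on the log2 scale, and so did 79.7% of all genes (93.5% by the adjusted p alone). The range was 6.87 for AXL, 5.03 for IGF1R, 4.50 for KIT, 4.24 for MET and 3.96 for PDGFRA, and it was smallest for FGFR2 (1.42), whose adjusted p was 2.12e-05. Between pairs of parental lines, with limits of an adjusted p under 0.05 and 2-fold, 6 receptors differed for OV-90 and Kuramochi (47% of all genes), 7 for OV-90 and OVSAHO (48.1%), 7 for OV-90 and EFO-21 (50.2%), 7 for Kuramochi and OVSAHO (37.6%), 6 for Kuramochi and EFO-21 (41.3%) and 7 for OVSAHO and EFO-21 (44.2%).

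**Figure D1:**
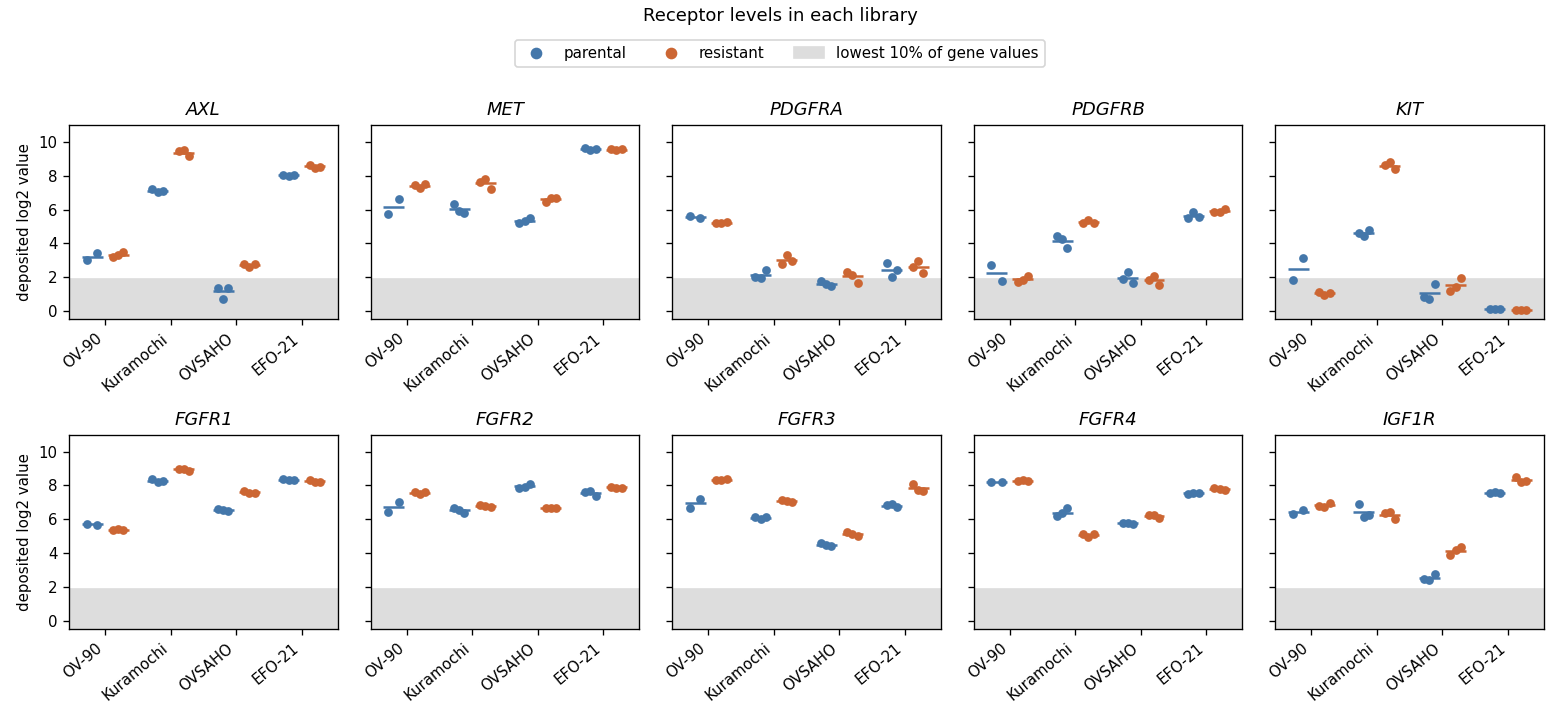
Deposited log2 value (y axis) of each receptor in every library, by line (x axis), with parental libraries in blue, resistant libraries in orange, a bar at each group mean and grey up to the highest 10th percentile of a library. Resistant Kuramochi libraries stand at 8.40 to 8.81 for KIT, where parental EFO-21 libraries are at 0.09 to 0.13, and parental OVSAHO libraries lie in the grey band for AXL.

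In the resistant lines, most of the receptor genes that passed the test were higher than in the parental line, but each line had its own set. A gene was counted as changed at a limma adjusted p under 0.05 and at least 2-fold. In OV-90, 2 of 10 receptors rose (MET and FGFR3) and 0 fell, where 16.1% of all genes were changed, 9.5% higher. In Kuramochi, 5 rose (AXL, MET, PDGFRB, KIT and FGFR3) and 1 fell (FGFR4), where 22.5% of all genes were changed, 11.8% higher and 10.6% lower. In OVSAHO, 4 rose (AXL, MET, FGFR1 and IGF1R) and 1 fell (FGFR2), where 7.76% of all genes were changed, 3.93% higher and 3.83% lower. In EFO-21, 1 rose (FGFR3) and 0 fell, where 14.3% of all genes were changed, 7.11% higher and 7.15% lower. The OV-90 and EFO-21 counts of 20% and 10% of the receptors were thus near the share of all genes, and those of Kuramochi (60%) and OVSAHO (50%) above it.

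The median log2 change of the 10 receptors was 0.10 in OV-90, 0.94 in Kuramochi, 0.56 in OVSAHO and 0.26 in EFO-21, beside -0.06, -0.02, 0.00 and 0.01 over all genes. Parental and resistant libraries did not overlap for 8 receptors in OV-90 (69.1% of all genes), 9 in Kuramochi (59.2%), 7 in OVSAHO (48.4%) and 7 in EFO-21 (59.7%). With the adjusted p alone and no fold limit, 3 receptors passed in OV-90 (36% of all genes), 8 in Kuramochi (46.9%), 7 in OVSAHO (33.3%) and 5 in EFO-21 (48.4%). The 2 calls in OV-90 needed all 3 resistant libraries, since the count was 0 without library 13, 14 or 15. The single call in EFO-21 was lost without parental library 12 or resistant library 22, where FGFR3 was just under 2-fold. Because library RNA is measured in bulk, fewer cells with a transcript and less transcript per cell cannot be told apart.

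**Figure D2:**
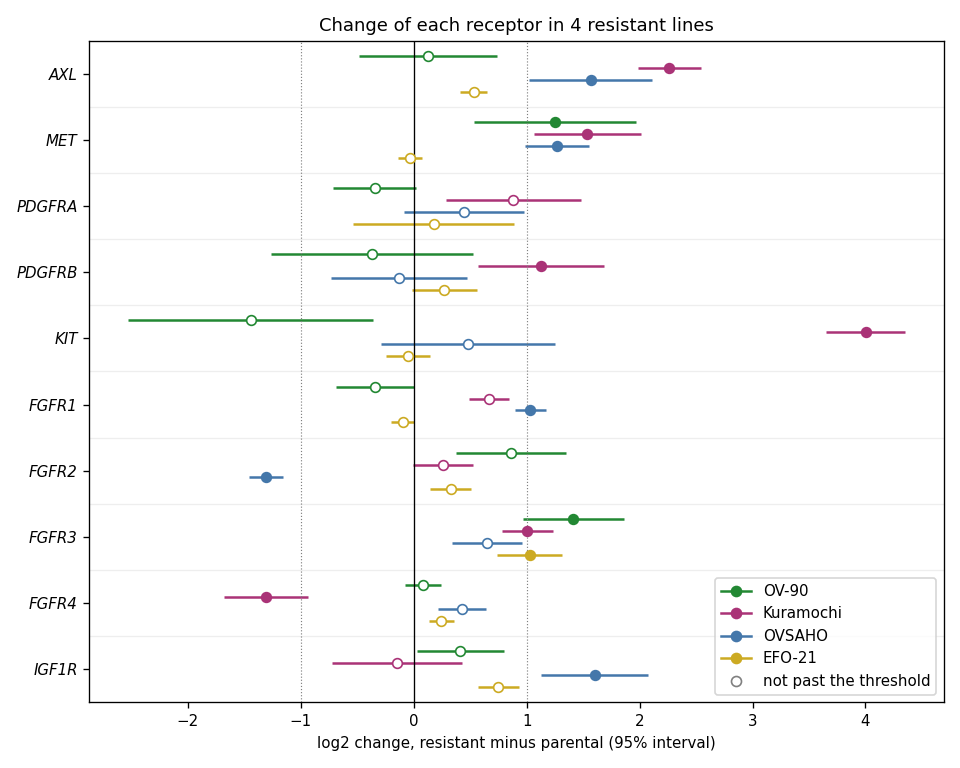
Log2 change from parental to resistant (x axis, with its 95% interval as a line) of each receptor in 4 lines, by colour. Filled points passed the test, open points did not, and dotted lines mark a 2-fold change, with KIT in Kuramochi at 4.0 and the FGFR3 points of all 4 lines between 0.65 and 1.41.

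AXL, a receptor of the TAM family, lies on chromosome 19 at 41725128 to 41767671 on the plus strand (GRCh37, NCBI Gene ID 558). Parental values were 8.02, 7.98 and 8.07 in EFO-21, 7.23, 7.03 and 7.09 in Kuramochi, 3.02 and 3.40 in OV-90, and 1.37, 0.73 and 1.36 in OVSAHO. The order of the lines was thus EFO-21, Kuramochi, OV-90 and OVSAHO, and each neighbour differed from the next by an adjusted p under 0.05. EFO-21 stood only 0.91 above Kuramochi on the log2 scale (95% interval of Kuramochi minus EFO-21 -1.34 to -0.48, limma adjusted p = 0.00196), under the 2-fold limit, while Kuramochi stood 3.91 above OV-90 (adjusted p = 1.26e-07). Between the 2 lines named first and OVSAHO, the differences were 6.87 and 5.96, against values at the bottom.

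In resistant Kuramochi, AXL stood at 9.48, 9.51 and 9.15, and all 3 libraries were above every library of any other group. The rise was 2.26 on the log2 scale (SE 0.12, 4.79-fold, limma adjusted p = 3.66e-05). Resistant OVSAHO libraries were at 2.78, 2.62 and 2.76, above the bottom where the parental ones had lain at it, and the log2 difference of 1.57 (adjusted p = 0.00403) became 0.92 with low values set to the 10th percentile, under the 2-fold limit. Resistant EFO-21 libraries (8.63, 8.49 and 8.55) were above the parental ones by 0.53 (SE 0.05, adjusted p = 4.54e-04), which was under 2-fold. Resistant OV-90 libraries (3.19, 3.31 and 3.51) overlapped the parental ones, with a difference of 0.13 whose 95% interval was -0.48 to 0.74. The change of AXL in Kuramochi was larger than in OV-90 by 2.13 (limma adjusted p = 4.44e-07), than in EFO-21 by 1.73 (adjusted p = 2.68e-06) and than in OVSAHO by 0.70 (adjusted p = 0.0139), a difference set partly by the parental OVSAHO values at the bottom. With low values set to the 10th percentile it was 1.35 (adjusted p = 1.70e-06).

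MET, the receptor of hepatocyte growth factor, lies on chromosome 7 at 116312250 to 116438431 on the plus strand. Its parental values were 9.65, 9.53 and 9.60 in EFO-21, 5.74 and 6.60 in OV-90, 6.32, 5.92 and 5.81 in Kuramochi and 5.21, 5.34 and 5.52 in OVSAHO. EFO-21 stood above each other line by 3.42 or more, and OV-90 and Kuramochi, the neighbours below it, could not be separated (difference 0.15, 95% interval -0.37 to 0.68, limma adjusted p = 0.582). In 3 resistant lines all MET values moved up past every parental library of that line. Resistant values were 7.44, 7.30 and 7.51 in OV-90, 7.64, 7.79 and 7.24 in Kuramochi and 6.47, 6.68 and 6.72 in OVSAHO. EFO-21 stayed where it was highest, with 9.60, 9.51 and 9.57.

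The rises of MET were close to each other in size, with 1.54 in Kuramochi (SE 0.20, limma adjusted p = 0.0012), 1.27 in OVSAHO (SE 0.12, adjusted p = 0.001) and 1.25 in OV-90 (SE 0.27, adjusted p = 0.0309). Pairwise differences between these 3 rises did not pass the test (adjusted p = 0.374, 0.959 and 0.409), with 95% intervals of the difference from -0.84 at the lowest to 0.79 at the highest. In EFO-21 the difference was -0.03 (95% interval -0.14 to 0.07), and the MET change there differed from each of the other 3 lines (adjusted p 4.06e-05 to 7.16e-04). The OV-90 rise was 0.82 without parental library 2, and its adjusted p was 0.0883 to 0.111 without any 1 of the resistant libraries.

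Among the class III receptors, KIT, the receptor of stem cell factor, showed the widest change of the 10 receptors. It lies on chromosome 4 at 55523434 to 55606949 on the plus strand and its values rest on 12 exon and junction features. Parental Kuramochi libraries were at 4.61, 4.45 and 4.78 and resistant ones at 8.63, 8.81 and 8.40. The rise was 4.0 (SE 0.14, 16.02-fold, limma adjusted p = 1.20e-05). In OVSAHO, values were 0.84, 0.71 and 1.58 in parental and 1.19, 1.43 and 1.96 in resistant libraries, and in EFO-21 all 6 libraries were between 0.04 and 0.13, so KIT was at or near the bottom in both. In OV-90 the parental values of 1.85 and 3.15 differed from each other by more than 1, and the resistant values of 1.10, 0.97 and 1.09 were at the bottom. This difference of -1.45 did not pass (adjusted p = 0.0517), although it did in a fit of all libraries together (adjusted p = 0.00119), after recentring (0.0465) and without parental library 2 (-2.10, adjusted p = 0.0103). It was -0.69 with low values set to the 10th percentile (adjusted p = 0.273), -0.79 and under the 2-fold limit without parental library 3 (adjusted p = 0.0121), and its adjusted p was 0.131 to 0.137 without a resistant library and 0.0580 with no mean-variance trend.

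PDGFRB, which binds PDGF-B, PDGF-D and related dimers, lies on chromosome 5 at 149493402 to 149535435 on the minus strand. Kuramochi values were 4.46, 4.26 and 3.72 in parental and 5.22, 5.37 and 5.23 in resistant libraries. The rise was 1.13 (SE 0.23, limma adjusted p = 0.00815), and it was 0.91 without parental library 6, under the 2-fold limit. EFO-21 carried the highest PDGFRB in parental form (5.52, 5.85 and 5.55) and resistant values of 5.86, 5.86 and 6.01, a difference of 0.27 (95% interval -0.02 to 0.56). In OV-90 (2.74 and 1.76 against 1.73, 1.86 and 2.05) and OVSAHO (1.86, 2.32 and 1.65 against 1.82, 2.08 and 1.54) the groups overlapped near the bottom.

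PDGFRA, the receptor of PDGF-A among others, lies on chromosome 4 at 55095447 to 55164412 on the plus strand, and its value is a mean of log2 exon values where the other 9 receptors have one from a robust linear model. OV-90 was the line that carried it, at 5.62 and 5.52 in parental and 5.21, 5.21 and 5.25 in resistant libraries. The difference there was -0.35 (95% interval -0.71 to 0.02, limma adjusted p = 0.112). Kuramochi values were 1.99, 1.97 and 2.45 in parental and 2.78, 3.33 and 2.94 in resistant libraries, a difference of 0.88 (adjusted p = 0.0274) under the 2-fold limit, which was 1.04 and past it without parental library 6. OVSAHO (1.77, 1.60 and 1.47 against 2.33, 2.14 and 1.68) and EFO-21 (2.82, 1.99 and 2.42 against 2.58, 2.95 and 2.23) overlapped at low values. An annotated protein-coding gene without a symbol, not in the table, overlaps PDGFRA on the same strand.

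The 4 FGF receptors moved separately. FGFR3, on chromosome 4 at 1795020 to 1810599 on the plus strand, was the only one of the 10 receptors above its parental line at an adjusted p under 0.05 in all 4 lines. OV-90 went from 6.67 and 7.20 to 8.33, 8.33 and 8.39. Kuramochi went from 6.16, 6.01 and 6.10 to 7.17, 7.11 and 7.02. OVSAHO went from 4.60, 4.45 and 4.42 to 5.26, 5.12 and 5.02. EFO-21, where parental libraries had 6.83, 6.90 and 6.70, had 8.08, 7.72 and 7.70, so that no line showed overlap.

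The FGFR3 difference was 1.41 in OV-90 (SE 0.17, limma adjusted p = 0.0128), 1.02 in EFO-21 (SE 0.12, adjusted p = 9.84e-04), 1.01 in Kuramochi (SE 0.09, adjusted p = 3.28e-04) and 0.65 in OVSAHO (SE 0.13, adjusted p = 0.0121), the last under 2-fold. Calls near the fold limit were lost on leaving out a library. In Kuramochi the value was 0.97 without parental library 5 or resistant library 16, and in EFO-21 it was 0.97 without parental library 12 and 0.90 without resistant library 22. In OV-90 it was 1.39 to 1.42 without a resistant library, with adjusted p = 0.0640 to 0.0727. Of the 6 pairs of lines, only OV-90 and OVSAHO differed in the size of the FGFR3 change (0.77, adjusted p = 0.00311).

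FGFR1, on chromosome 8 at 38257733 to 38326352 on the minus strand, was at 8.39, 8.21 and 8.25 in parental Kuramochi and 8.37, 8.30 and 8.35 in parental EFO-21, which could not be separated (-0.06, 95% interval -0.23 to 0.11), then 6.60, 6.56 and 6.51 in OVSAHO and 5.73 and 5.67 in OV-90. It rose in OVSAHO to 7.67, 7.53 and 7.57, by 1.03 (SE 0.06, limma adjusted p = 2.09e-04), and by 0.99 without resistant library 19, just under the limit. Resistant Kuramochi libraries (8.99, 8.98 and 8.87) stood 0.66 above the parental ones (adjusted p = 6.42e-04). Resistant OV-90 (5.35, 5.39 and 5.33) and EFO-21 (8.31, 8.21 and 8.20) had differences of -0.34 and -0.10 that did not pass. FGFR1 overlaps LETM2 on the opposite strand, and the libraries were stranded but the strand setting of the counting was not given in the sources used here.

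FGFR2, on chromosome 10 at 123237846 to 123357972 on the minus strand, fell in OVSAHO from 7.88, 7.94 and 8.08 to 6.65, 6.66 and 6.66. OVSAHO had the highest parental level of the 4 lines and the lowest resistant level. The fall was -1.31 (SE 0.06, limma adjusted p = 1.35e-04). Elsewhere FGFR2 went the other way or little, from 6.43 and 6.99 to 7.61, 7.49 and 7.61 in OV-90 (0.86, adjusted p = 0.0306), from 6.68, 6.57 and 6.37 to 6.84, 6.81 and 6.75 in Kuramochi (0.26, 95% interval -0.0046 to 0.52) and from 7.62, 7.65 and 7.40 to 7.93, 7.84 and 7.88 in EFO-21 (0.33, adjusted p = 0.0134). In OVSAHO the change of FGFR2 differed from that in each other line, by 1.57 to 2.17 (adjusted p 3.23e-08 to 2.79e-07). Without parental library 3, the OV-90 difference was 1.14 and passed the fold limit.

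FGFR4, on chromosome 5 at 176513906 to 176525145 on the plus strand, fell in Kuramochi from 6.20, 6.35 and 6.64 to 5.15, 4.97 and 5.15. The fall was -1.31 (SE 0.15, limma adjusted p = 8.85e-04), and it differed from the change in each other line (adjusted p 3.08e-09 to 1.14e-07). OV-90 carried the highest parental level (8.20 and 8.22), with 8.27, 8.31 and 8.29 in resistant libraries, a difference of 0.08 (95% interval -0.08 to 0.24). OVSAHO (5.81, 5.75 and 5.70 against 6.23, 6.26 and 6.05) and EFO-21 (7.52, 7.54 and 7.57 against 7.85, 7.77 and 7.73) had differences of 0.43 and 0.24, past the adjusted p (0.0144 and 0.00626) and under 2-fold.

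IGF1R, on chromosome 15 at 99191768 to 99507759 on the plus strand, was low in parental OVSAHO (2.43, 2.42 and 2.76) and rose there to 3.91, 4.17 and 4.34. The rise was 1.60 (SE 0.19, 3.04-fold, limma adjusted p = 0.00236), and resistant OVSAHO libraries were still below every library of the other lines. Parental OV-90 (6.28 and 6.57) and Kuramochi (6.91, 6.13 and 6.22) could not be separated (0.003, 95% interval -0.51 to 0.52), and EFO-21 was highest (7.55, 7.59 and 7.57). Resistant EFO-21 libraries stood at 8.48, 8.22 and 8.25, a difference of 0.75 (adjusted p = 6.21e-04) under 2-fold. In OV-90 the resistant values of 6.79, 6.73 and 6.99 were 0.41 above the parental ones (adjusted p = 0.0840), and in Kuramochi those of 6.38, 6.42 and 6.02 overlapped them.

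Averaged over the 4 lines with the line as a block in limma, AXL (1.17, 95% interval 0.76 to 1.59, adjusted p = 2.21e-04) and FGFR3 (1.002, 95% interval 0.82 to 1.18, adjusted p = 2.27e-07) passed both limits, as did 6.09% of all genes. The fit treats the 23 libraries as independent. Its intervals and p-values therefore do not measure the spread over the 4 pairs of parental and resistant lines. MET averaged 0.99 (adjusted p = 1.49e-04), IGF1R 0.67 (adjusted p = 0.00497) and FGFR1 0.35 (adjusted p = 0.0390), past the adjusted p and under 2-fold, a limit on the adjusted p alone that 33% of all genes passed. The AXL average summarises unlike values, 2.26 in Kuramochi and 0.13 in OV-90, and the FGFR3 average lies so close to 2-fold that it passed or missed with small changes of the data, missing after recentring and without any 1 of 8 libraries, namely 2, 5, 12, 13, 14, 15, 16 or 22, where it was 0.93 to 0.99. MET stood at 1.03 to 1.05, above the 2-fold limit, without library 3, 10, 11, 12, 22, 23 or 24. The FGFR1 average missed the threshold without any 1 OVSAHO library (limma adjusted p = 0.0677 to 0.0706). It also missed without any 1 resistant Kuramochi library and without parental Kuramochi library 5 or 6 (limma adjusted p = 0.0550 to 0.0685). KIT averaged 0.86 (limma adjusted p = 0.155), and 1.15 without library 3. The AXL average was 1.10 to 1.29 without any 1 library. With low values set to the 10th percentile it was 1.002, as close to 2-fold as that of FGFR3. For all 10 receptors the change differed between lines in limma's F-test of the interaction, as it did for 75.1% of all genes, and only PDGFRA (adjusted p = 0.0374) missed the threshold without single libraries, with 0.0509 to 0.0970 without library 2, 3, 4, 5, 13, 14, 15, 17 or 18. By pairs of lines, the change differed for 7 receptors between OV-90 and Kuramochi (56.1% of all genes), 6 between OV-90 and OVSAHO (36.7%), 4 between OV-90 and EFO-21 (47.7%), 7 between Kuramochi and OVSAHO (45.9%), 7 between Kuramochi and EFO-21 (48.4%) and 5 between OVSAHO and EFO-21 (32.4%). These pairs share lines and are not independent of each other. With low values set to the 10th percentile, KIT missed for OV-90 with OVSAHO (limma adjusted p = 0.0931) and with EFO-21 (0.0788). AXL then missed for OVSAHO with EFO-21 (0.0756).

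Ligands of these receptors had no single direction across lines, and 20 of the 28 listed were in the table. Hepatocyte growth factor was not analysed here. In OV-90, 4 ligands were called higher and 1 lower (25% of the list, against 16.1% of all genes), in Kuramochi 8 and 5 (65%, against 22.5%), in OVSAHO 4 and 1 (25%, against 7.76%) and in EFO-21 4 and 2 (30%, against 14.3%). The median log2 change of the 20 was 0.17, 0.54, 0.27 and 0.22 in this order of lines. Their counts in OV-90 fell to 0 or 1 without any 1 resistant library.

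**Figure D3:**
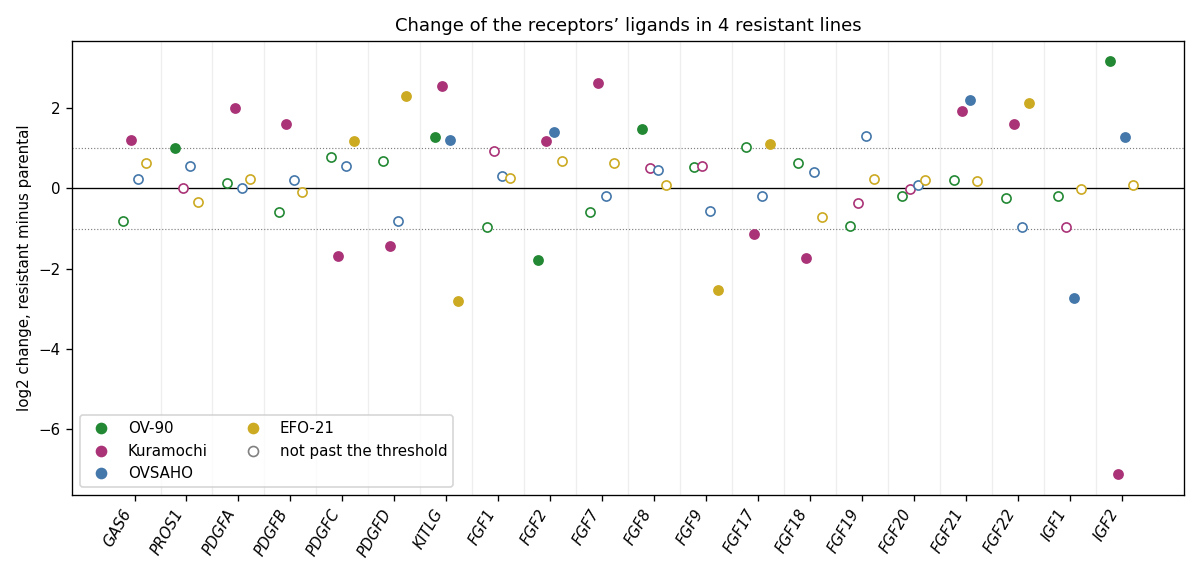
Log2 change from parental to resistant (y axis) of each measured ligand (x axis) in 4 lines, by colour, with filled points for those past the test and dotted lines at 2-fold. IGF2 in Kuramochi lies lowest, at -7.13, and KITLG has filled points above 0 in 3 lines and below 0 in EFO-21.

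KITLG, the ligand of KIT, rose in Kuramochi by 2.56 (SE 0.32, limma adjusted p = 0.00117), from 3.58 to 6.15, the line in which KIT rose as well. It fell by 2.80 in EFO-21 (adjusted p = 8.26e-05). OVSAHO had a rise of 1.21 (adjusted p = 0.00643) and OV-90 one of 1.27 (adjusted p = 0.0333), which was 0.82 without parental library 2. GAS6, the ligand of AXL, rose in Kuramochi alone among the lines tested, by 1.22 (adjusted p = 0.0022). PROS1, which binds the TAM receptors, rose by 1.01 in OV-90 (adjusted p = 0.0236), and the call was lost at 0.98 after recentring and at 0.73 without parental library 2.

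IGF2, a ligand of IGF1R, had the widest change of the ligands. It fell in Kuramochi from 10.56 to 3.42, by 7.13 (SE 0.25, limma adjusted p = 1.18e-05), where IGF1R itself overlapped, and it rose in OV-90 from 8.17 to 11.34, by 3.17 (adjusted p = 0.00969). In OVSAHO, where IGF1R rose, IGF2 rose by 1.28 (adjusted p = 0.00865), and IGF1 went from 4.16 to 1.43, a fall of 2.73 (adjusted p = 0.0236) that missed the threshold without any 1 of 4 libraries, 7, 8, 9 or 20. For IGF1, 2 of 3 resistant libraries were at the bottom, so the size of its fall is not a measured fold change. With low values set to the 10th percentile the IGF1 difference was -2.13 (limma adjusted p = 0.00302).

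Among PDGF ligands, PDGFA (2.02) and PDGFB (1.60) rose in Kuramochi while PDGFC (-1.68) and PDGFD (-1.44) fell. PDGFC (1.17) and PDGFD (2.30) rose in EFO-21. Of the FGF ligands, FGF2 rose in Kuramochi (1.18) and OVSAHO (1.40) and fell in OV-90 (-1.79), FGF18 fell in Kuramochi (-1.75) and FGF9 in EFO-21 (-2.54). FGF8 rose in OV-90 (1.49) and FGF17 in EFO-21 (1.11). FGF7 in Kuramochi (2.63), FGF21 in Kuramochi (1.92) and OVSAHO (2.20) and FGF22 in Kuramochi (1.60) and EFO-21 (2.13) were called as well, with a parental mean that was low, at 0.58 to 2.50. Parental libraries at the bottom were 3 of 3 for FGF7 in Kuramochi and 2 of 3 for FGF21 in OVSAHO and FGF22 in EFO-21. The sizes of those rises are thus not measured fold changes. With low values set to the 10th percentile they were 1.44, 1.53 and 1.19 in this order. FGF17 in Kuramochi counts among the called ligands, but 2 of 3 parental and all 3 resistant libraries were at the bottom (means of 1.38 and 0.25), so its difference is not a measured fold change, and with low values set to the 10th percentile it was -0.064 (adjusted p = 0.620). Several of these calls were lost without a single library, namely FGF17 in Kuramochi (5, 16, 17 or 18) and EFO-21 (12 or 24), FGF22 in Kuramochi (4, 5, 16, 17 or 18) and FGF21 in OVSAHO (9, 19, 20 or 21).

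Coreceptors, binding proteins and the proteases and inhibitors that control ligand release were measured for 18 genes. Called genes numbered 4 higher and 4 lower in OV-90 (44.4%, against 16.1% of all genes) and 4 and 5 in Kuramochi (50%, against 22.5%). They numbered 1 and 3 in OVSAHO (22.2%, against 7.76%) and 0 and 6 in EFO-21 (33.3%, against 14.3%). ST14, or matriptase, a protease that activates hepatocyte growth factor, fell in Kuramochi (5.73 to 0.77), OVSAHO (4.08 to 0.52) and EFO-21 (6.74 to 5.28). Its limma adjusted p was 1.97e-05, 0.00107 and 1.83e-04. All 3 resistant libraries of Kuramochi and of OVSAHO were at the bottom, so the size of the ST14 fall in those lines is not a measured fold change. The inhibitor gene SPINT2 fell by 3.90 in Kuramochi. IGFBP2, an IGF binding protein, rose by 2.33 in OV-90 and IGFBP4 fell there by 2.74. IGF2R, which clears IGF2 from the cell surface, rose in OV-90 as well (2.11), and IGFBP6 went from 7.71 down to 5.71. IGFBP5 fell by 2.36 in OVSAHO. KLB, the coreceptor of FGF21, rose by 1.51 in Kuramochi. HPN, the protease hepsin, was called there at or near the bottom in both groups (0.54 and 1.71), and NRP1 was called in OVSAHO from the bottom (0.76) to 2.03, so neither is a measured fold change. FGFBP1, an FGF carrier, fell by 2.10 and NRP1, a coreceptor, fell by 1.70 in EFO-21.

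Adaptors and relays downstream of the receptors changed mostly in OV-90, where 10 of 21 were higher and 0 lower (47.6%, against 16.1% of all genes). Their median log2 change in OV-90 was 0.84. CRKL, an adaptor, rose there by 2.63 (limma adjusted p = 0.0306) and GAB1, a docking protein, by 2.17 (adjusted p = 0.00738). This count was 0 without any 1 of the resistant OV-90 libraries and 6 without parental library 2. Kuramochi had 2 up and 2 down (19%, against 22.5% of all genes), OVSAHO had 1 up (4.76%, against 7.76%), and EFO-21 had 2 up and 2 down (19%, against 14.3%). The adaptor counts in Kuramochi and OVSAHO were thus under the share of all genes. GAB1 rose in Kuramochi (1.30) and fell in EFO-21 (-1.47), and IRS1, the docking protein of IGF1R, likewise rose in Kuramochi (1.19) and fell in EFO-21 (-3.19). GRB10, an adaptor that restrains IGF1R, fell by 2.19 in Kuramochi. GAB2, a docking protein, fell there (-1.16) and rose in EFO-21 (1.82), where GRB14, an adaptor of the GRB10 family, also rose (1.07). PIK3R1, the regulatory subunit of PI3K, rose by 1.10 in OVSAHO.

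Genes of ERK feedback and ERK targets were measured for all 19 listed and also split by line. Rises outnumbered falls by 8 to 1 in OV-90 (47.4% called) and by 5 to 0 in OVSAHO (26.3%). Falls outnumbered rises by 7 to 1 in EFO-21 (42.1%) and by 5 to 4 in Kuramochi (47.4%). Of all genes, 16.1% were called in OV-90, 22.5% in Kuramochi, 7.76% in OVSAHO and 14.3% in EFO-21. The median log2 change of the 19 genes was 0.85, -0.42, 0.55 and -0.37 in this order of lines. Without any 1 resistant library the OV-90 count was 3.

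**Figure D4:**
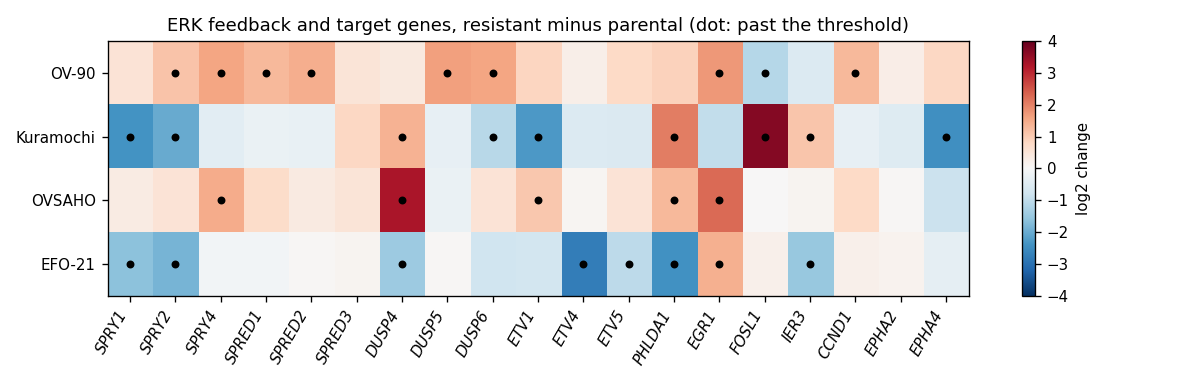
Log2 change from parental to resistant, by colour from -4 (blue) to 4 (red), of 19 ERK feedback and target genes (columns) in 4 lines (rows), with a dot where the test was passed. SPRY1 and SPRY2 are blue with a dot in Kuramochi and EFO-21, and EGR1 is red with a dot in OV-90, OVSAHO and EFO-21.

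SPRY2, a Sprouty feedback inhibitor, rose by 1.15 in OV-90 (limma adjusted p = 0.0232) and fell in EFO-21 by 1.87 (adjusted p = 3.19e-05) and went from 9.42 to 7.42 in Kuramochi (adjusted p = 5.70e-05). EGR1, an immediate early transcription factor, rose in OV-90 (1.75), OVSAHO (2.25) and EFO-21 (1.41). DUSP5, a phosphatase of ERK in the nucleus, rose in OV-90 (1.63), and FOSL1, an AP-1 subunit, fell there (-1.15). In Kuramochi the widest rises were FOSL1 (3.66) and PHLDA1 (2.03), and the widest falls were EPHA4 (-2.45) and SPRY1 (-2.38). DUSP4, an ERK phosphatase, rose in OVSAHO from the bottom (0.36) to 3.63. ETV4, an ETS factor downstream of FGF signals, fell from 4.56 to 1.81 in EFO-21 and PHLDA1 fell by 2.43. For ETV4, 2 of 3 resistant libraries were at the bottom, so the size of its fall is not a measured fold change.

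Another 40 receptor tyrosine kinases outside the ERBB family were in the table. Those that rose numbered 6 in OV-90, 7 in Kuramochi, 7 in OVSAHO and 4 in EFO-21, and those that fell 3, 14, 4 and 2. This is 22.5%, 52.5%, 27.5% and 15% of the list, against 16.1%, 22.5%, 7.76% and 14.3% of all genes. The EFO-21 count was thus near the share of all genes. In Kuramochi, where 5 of the 10 receptors rose, the median log2 change of these 40 was -0.53. DDR2, a collagen receptor, rose there from 2.86 to 8.76 (limma adjusted p = 3.61e-05), and RET rose from 0.81, at the bottom, to 4.32. TIE1 fell there (-4.65), and EPHA1 went from 5.03 to 0.50, at the bottom in all 3 resistant libraries. In OVSAHO, EPHA1 went from 5.97 to 1.40, with 2 of 3 resistant libraries at the bottom, and DDR2 rose (2.27). The size of these EPHA1 falls is thus not a measured fold change. ROR2 rose in OV-90 (3.62) and in EFO-21 (1.94, with 2 of 3 parental libraries at the bottom) and fell in Kuramochi (-2.64). In OV-90, TEK, an angiopoietin receptor, rose (3.41), and EPHA1 (-1.78) and EPHB6 (-1.55) of the ephrin receptors fell. EPHA5 rose in OVSAHO (2.97), and EPHB6 fell there from 3.39 to 1.41, at the bottom. In EFO-21, EPHA10 went from 3.83 to 1.42 and KDR, a VEGF receptor, from 2.75 to 1.15, both at the bottom in resistant libraries, and EPHA1 from 1.41, at the bottom, to 3.07.

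Epithelial markers were lower mainly in Kuramochi and OVSAHO by count. In Kuramochi 0 of 10 were higher and 8 lower, and in OVSAHO 0 were higher and 5 lower. In OV-90 0 and 0 and in EFO-21 1 and 1 were called. Of all genes, 22.5% were called in Kuramochi, 7.76% in OVSAHO, 16.1% in OV-90 and 14.3% in EFO-21. The log2 of the summed level of the 10 epithelial markers was 13.45 to 13.71 in parental and 12.01 to 12.05 in resistant Kuramochi libraries. In OVSAHO it went from between 13.98 and 14 to between 12.49 and 12.63. The sums did not overlap in the other 2 lines either, at 14.36 to 14.57 and 13.99 to 14.06 in OV-90 and at 13.86 to 13.93 and 13.35 to 13.37 in EFO-21. Such a sum is set mostly by the markers with the highest values. CDH1 went up in OV-90 (8.56 to 9.21, not called) and EFO-21 (4.65 to 6.03, called), and GRHL2 went up in both without a call. EPCAM in OV-90 was at 12.30 and 12.33, and ESRP1 was the marker called lower in EFO-21. The median log2 change of the list was -0.54 in OV-90, -2.47 in Kuramochi, -1.06 in OVSAHO and -0.58 in EFO-21. EPCAM went from 6.47 to 2.69 in Kuramochi and from 8.83 to 5.82 in OVSAHO. Of 7 Müllerian and serous markers 0 were higher and 4 lower in Kuramochi, where their median log2 change was -1.07. MECOM was among those 4, at 6.74 in parental and 1.52, at the bottom, in resistant libraries. In OVSAHO 0 were higher and 2 lower, in OV-90 1 (MECOM) was higher and 0 lower, and in EFO-21 1 (MSLN) was higher and 0 lower. Of 6 fibroblast markers 2 were higher and 3 lower in Kuramochi and likewise in OVSAHO. In OV-90 and in EFO-21, 1 fibroblast marker was higher and 0 lower. Of 6 leukocyte markers 1 was higher and 1 lower in Kuramochi and 0 and 4 in OVSAHO, and PTPRC, which defines leukocytes, had group means of 0.54 to 4.58. Of 4 endothelial markers 1 was higher and 1 lower in Kuramochi, where CDH5 rose from 4.75 to 7.62 and VWF fell from 3.89 to 1.89 (limma adjusted p = 4.64e-04), TEK was at 4.99 and 4.95 and was not called, and PECAM1 was at the bottom in both groups (0.66 and 0.67). CPA3, a mast cell protease listed because mast cells carry KIT, was at 1.70 to 2.74 in parental and 2.40 to 3.58 in resistant Kuramochi and was not called. The part of these shifts in the receptor changes was not tested.

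Genes whose group means followed those of a receptor most closely were found by Pearson's r over the 8 groups among 15208 other genes (15209 for PDGFRA) that were not low and varied by at least 1 on the log2 scale. The points share lines and normalization, and the values are a description. For AXL genes with a symbol that followed it most closely included TUBB6 (r = 0.99) and SH2B3 (0.99). TUBB6 had group means of 7.16 in parental OVSAHO and 9.70 in resistant Kuramochi, the groups with the lowest and the highest AXL. For KIT they were PAPPA (0.98) and IL7R (0.98), and for MET VPS13C (0.98) and RAB23 (0.97). IL7R was at 6.30 in parental and 8.87 in resistant Kuramochi and at 2.14 or lower in every other group.

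The other receptors had FRMD6 (0.98) and SH3BP2 (0.98) for FGFR1, DMXL2 (0.97) and KMT5AP1 (0.97) for FGFR3, MTMR11 (0.99) and SAMD13 (0.98) for FGFR4 and SMIM10 (0.98) and NDE1 (0.98) for IGF1R. Those of PDGFRA were CDH26 (0.996) and HIBCH (0.99), where OV-90 stood apart from 3 lines, and those of PDGFRB were ADAMTSL3 (0.996) and IFIT2 (0.99). FGFR2, whose range was the smallest, had lower values with RELCH (0.91) and TLR2 (0.81).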

How the data were processed

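Total RNA of parental and prexasertib-resistant cultures was made by the authors into stranded mRNA libraries and sequenced. The authors aligned reads to GRCh37/hg19 (the annotation release is not given in the sources used here), left out exons with under 10 reads in over 80% of samples, derived 1 value per gene with a robust linear model, and deposited quantile normalized log2 values. For 5210 of 21658 genes the table marks a mean of log2 exon values instead. The deposited table also holds a count of exon and junction features per gene, and 0 columns belonged to other samples. Quantile normalization hides a shift common to most genes, and without read counts no depth, counting interval or detection limit could be given.

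Columns name the line and whether it is resistant, which set the groups. Gene IDs were given symbols from a RefSeq gene table (GRCh38.p14), matching 20745 (95.78%). Positions came from GENCODE lifted to GRCh37. No pseudocount or filter was used. Each line was fitted in limma (version 3.58.1, R 4.3.3) with lmFit, and eBayes used a mean-variance trend, and p-values were two-sided and adjusted by Benjamini-Hochberg over all genes. Parental lines (11 libraries), interactions and the average (23 libraries, line as a block) were separate fits. Exact permutation of 3 against 3 or 2 against 3 libraries cannot go below p = 0.1 and was not used. The fitting code was tested on simulated data.

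The text names the 10 receptors, each ligand called in a line, the counts of the lists, the 2 widest rises and falls per list and line among called genes without overlap, and the genes most like a receptor (5 for AXL, 2 for others). Leukocyte, endothelial and mast cell marker counts are given for some lines only. IDs without a symbol are left unnamed, and 1 gene is not reported here. Of the marker lists only some genes are named beside the counts. The remaining names were picked with their values in view (epithelial, leukocyte and endothelial markers, SPRY2, and genes repeated across lines). The members and lists were chosen with earlier results of these data known. Alternatives were 1 fit of all libraries, no trend, a filter at the 25th percentile, recentring, a floor at the 10th percentile, thresholds of 1.5-fold and no fold, and leaving out each library.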

Additional observations from a re-analysis of the deposited data

Results flagged for a closer look

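For each of the 10 receptors the change from parental to resistant cells differed between the 4 lines, by a limma F-test of the interaction with 3 degrees of freedom, adjusted over all genes. The same test was passed by 75.1% of all genes. The adjusted p was 4.67e-10 for FGFR1, 4.33e-09 for FGFR4, 1.14e-08 for FGFR2, 2.63e-08 for KIT and 5.56e-07 for AXL. It was 6.02e-05 for IGF1R, 9.07e-05 for MET, 0.00522 for PDGFRB, 0.00788 for FGFR3 and 0.0374 for PDGFRA, which was 0.0509 to 0.0970 without single libraries of OV-90 or Kuramochi. Changes ranged from -1.31 in OVSAHO to 0.86 in OV-90 for FGFR2, from -1.31 in Kuramochi to 0.43 in OVSAHO for FGFR4, from -0.34 in OV-90 to 1.03 in OVSAHO for FGFR1 and from -1.45 in OV-90 to 4.0 in Kuramochi for KIT. No receptor was called in both directions, and of the 10 only AXL and FGFR3 had a difference above 0 in each line.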

How the results depend on the processing

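Counts of receptors changed in a line stayed within 1.5 times of the values given with 1 fit of all libraries, no trend, recentring or the floor. With the filter at the 25th percentile the OVSAHO count was 3 in place of 5. Under it 7 receptors differed between parental lines and 7 between lines in their change. These counts were lower because the filter took out receptors that were low on average, which were then not tested. For the change between lines these were PDGFRA, PDGFRB and KIT, and the 7 receptors left all passed. In EFO-21 the count was 2 at 1.5-fold and 5 with no fold threshold. The average over lines, whose alternatives were chosen after seeing the data as were those of the lists, gave 1 receptor after recentring, 4 at 1.5-fold and 5 with no fold threshold. With the floor the KIT difference in EFO-21 turned to 0.023. Leaving out each library in turn gave counts of 0 to 3 in OV-90, 5 to 6 in Kuramochi, 4 to 5 in OVSAHO, 0 to 1 in EFO-21 and 1 to 4 for the average, 10 for parental lines and 9 to 10 for the difference between lines. Where a library was left out of parental OV-90, the lone sample was assumed to vary like the resistant ones. The sign turned for uncalled values with ranges of -0.065 to 0.32 (AXL, OV-90), -0.86 to 0.12 (PDGFRB, OV-90), -0.29 to 0.10 (IGF1R, Kuramochi), -0.28 to 0.057 (PDGFRB, OVSAHO) and -0.032 to 0.39 (PDGFRA, EFO-21). The cause was not tested. No paired analysis was possible because the columns carry no replicate numbers. Unknown depth limits what can be said of values at the bottom.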
